A study of Mus musculus with 12 samples.

Results

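The probe sets of 10 genes of the NRF2 and thioredoxin antioxidant system were followed in mouse CD4+ CD25- T cells given halofuginone or a related control compound. Members were chosen by name: Nfe2l2, Nfe2l1, Keap1, Bach1, Hmox1, Nqo1, Txnrd1, Txn1, Srxn1 and Prdx1, each through every probe set annotated to that gene symbol alone. This gave 18 of the 34945 probe sets with a single symbol, and they represented 9 of the 10 genes. Nfe2l2, Keap1, Bach1 and Txn1 had 2 probe sets each, Txnrd1 had 3, Srxn1 had 4, and Nfe2l1, Hmox1 and Nqo1 had 1 each. All 5 probe sets that name Prdx1, a peroxide-reducing peroxiredoxin, also name Gm21399, so Prdx1 has no value here.

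The cells came from C57B/6J mice of Jackson labs, were stimulated with antibodies to CD3 and CD28, and were cultured with TGFb and IL-6, the cytokines of the Th17 programme. They received 10 nM halofuginone (HF), a derivative of the plant alkaloid febrifugine that inhibits prolyl-tRNA synthetase, or 10 nM MAZ1310, which the submitters call its inactive derivative. RNA was taken at 3 h or 6 h, which gave 4 groups of 3 biological replicates on 12 Affymetrix arrays. Whether replicates were separate animals or separate cultures is not in the labels, so the p-values cover the spread among these samples, which may be technical, and the MAZ1310 arrays were the only controls analysed here.

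NRF2, encoded by Nfe2l2, is a transcription factor that KEAP1 holds in the cytoplasm and passes to the proteasome. Oxidants and electrophiles block that step, and NRF2 then pairs with small MAF proteins on antioxidant response elements and raises genes of glutathione, NADPH, heme and thioredoxin chemistry. NRF1, encoded by Nfe2l1, is a relative anchored in the endoplasmic reticulum and known for control of proteasome genes, and BACH1 is a heme-sensing repressor that occupies the same elements. Thioredoxin reductase (Txnrd1), thioredoxin (Txn1) and the peroxiredoxins form a relay that passes electrons from NADPH to peroxides. Thioredoxin also passes them to ribonucleotide reductase, which dividing T cells need for DNA synthesis. Sulfiredoxin (Srxn1) repairs overoxidised peroxiredoxins.

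Promoter windows of 300 bases, from 250 before to 50 after a RefSeq start on GRCm38.p6, were available for 9 members, Hmox1 being the one named only. They are shown for Nfe2l2, the regulator whose probe sets rose, and for Srxn1, whose probe sets did not share a sign. Txnrd1, whose HF effect had opposite signs at 3 h and 6 h (not called at 6 h), is shown by the second of its 3 starts. The windows of its other starts hold no match to the elements searched. Each window shown is read 5′ to 3′ along its gene, with matches to those elements in capitals. Nfe2l2 lies at chr2:75704614-75704913 on the minus strand, Txnrd1 at chr10:82858956-82859255 on the plus strand and Srxn1 at chr2:152105274-152105573 on the plus strand.
Nfe2l2: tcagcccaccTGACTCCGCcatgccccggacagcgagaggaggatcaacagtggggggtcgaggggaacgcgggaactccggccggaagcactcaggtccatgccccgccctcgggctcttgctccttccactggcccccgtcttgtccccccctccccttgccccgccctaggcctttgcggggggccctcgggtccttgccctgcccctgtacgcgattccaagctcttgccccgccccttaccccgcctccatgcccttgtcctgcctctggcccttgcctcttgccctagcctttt
Txnrd1: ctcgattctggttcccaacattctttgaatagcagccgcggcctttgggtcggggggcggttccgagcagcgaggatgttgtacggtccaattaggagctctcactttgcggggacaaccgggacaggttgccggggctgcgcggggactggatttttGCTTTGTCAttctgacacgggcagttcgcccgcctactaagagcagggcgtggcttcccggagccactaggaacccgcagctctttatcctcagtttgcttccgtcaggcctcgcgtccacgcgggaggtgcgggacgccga
Srxn1: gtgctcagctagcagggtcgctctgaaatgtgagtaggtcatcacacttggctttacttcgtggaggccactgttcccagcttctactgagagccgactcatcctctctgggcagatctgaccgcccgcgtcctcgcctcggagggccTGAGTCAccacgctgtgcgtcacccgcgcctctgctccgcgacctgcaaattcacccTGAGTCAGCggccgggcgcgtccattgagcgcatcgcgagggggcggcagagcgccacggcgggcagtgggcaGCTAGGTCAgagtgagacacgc
The antioxidant response element core was searched as TGACNNNGC on both strands. It was found 240 bases before the Nfe2l2 start, 92 before this Txnrd1 start, 28 after the Srxn1 start and 133 before the Prdx1 start, in 4 of the 15 member promoters in the table and in 12.4% of all 32851 promoters of that length (by gene, 4 of 9 members and 14.0% of all). The element of CNC factors with small MAF proteins, TGANTCAGC, is rarer, but its matches are not a subset of those of the core. It matched in Srxn1 (45 before the start) and Prdx1, and in 1.19% of all promoters. The AP-1 element TGACTCA can overlap that element. It does so in Srxn1 at 45 before the start and in Prdx1, inside the site at 133 before the start that also matches the core. It further matched Srxn1 at 102 and Prdx1 at 237 before the start, and was found in 5.2% of all promoters. The composite element of C/EBP and ATF4, TGATGNAAN, matched no member window and 3.95% of all promoters. A match is a description of letters in these windows, and a window without one shows only that the letters are not there.

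Values are log2 intensity, changes are differences in log2 intensity between group means ± SE, and adjusted p is from limma with Benjamini-Hochberg adjustment over all 45037 probe sets other than array controls. A probe set was called at an adjusted p under 0.05, and rose or fell means higher or lower with HF than with MAZ1310 at that time. Array medians lay at 6.60 to 6.68, and pairs of arrays of the same group had r = 0.991 to 0.997. MAZ1310 replicate 3 at 3 h deviated most from its group, by 0.128 on average over all probe sets and 0.3 over the members. The actin 3' to 5' difference, a sign of RNA quality, at 3 h was 1.03 ± 0.22 for MAZ1310 (SD, n = 3) and 1.25 ± 0.28 for HF, and 0.86 ± 0.14 and 1.07 ± 0.26 at 6 h. The groups overlap, but it was higher with HF in all 6 equally numbered pairs, by 0.11 to 0.36, and so was the GAPDH difference, by 0.11 to 0.41. Of 9 measured T cell markers, 7 were lower with HF at 6 h (Cd28, a costimulatory receptor, by 0.78), their summed intensity being 14600 to 16900 with HF and 21300 to 22700 with MAZ1310. At 3 h limma called 0 of the 9, and 1 had an unadjusted p under 0.05. Of 20 markers of B cells, macrophages, CD8 T or NK cells and erythroid cells, 0 were called at either time (2 at 3 h and 1 at 6 h at an unadjusted p under 0.05), and their mean levels did not exceed 7.93. In bulk RNA, fewer cells of a type and less RNA per cell cannot be told apart.

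At 6 h the called members were the regulators Nfe2l2 and Nfe2l1, both higher with HF. The differences of the other regulators, Keap1 and Bach1, and of the target and thioredoxin genes were not called. At 3 h, 2 member probe sets were higher with HF (Nfe2l2 and Nfe2l1) and 2 were lower (Hmox1 and Txnrd1), where 1.75% of all probe sets were called higher and 3.93% lower. At 6 h, 3 were higher, both of Nfe2l2 and that of Nfe2l1, and the other 15 were not called, against 3.61% of all probe sets called higher and 7.46% lower. The median change of the 18 was -0.115 at 3 h and 0.06 at 6 h, beside 0.03 at both times over all probe sets. The 2 compounds' arrays were fully apart for 5 of 18 member probe sets at 3 h (20.3% of all probe sets) and for 11 of 18 at 6 h (30.2% of all).

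**Figure D1:**
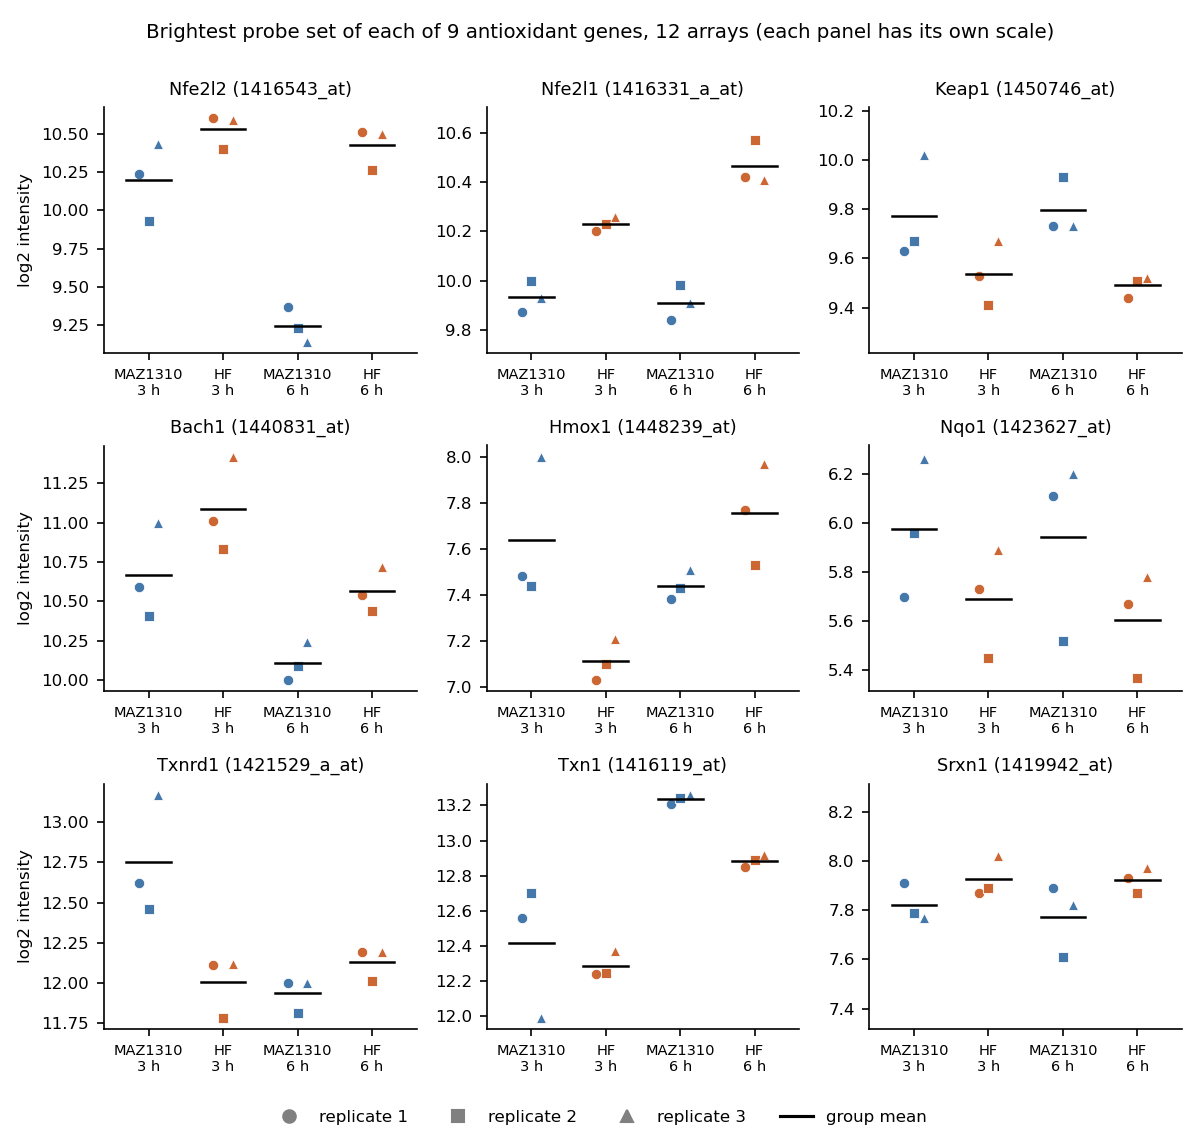
Log2 intensity (vertical axis, a scale of its own in each panel) of the brightest probe set of each of 9 genes on 12 arrays, grouped by compound and time; circles, squares and triangles are replicates 1, 2 and 3 and the bar is the group mean. The Nfe2l2 arrays with MAZ1310 at 6 h lie at 9.14 to 9.37, below all other arrays, and the Hmox1 arrays with HF at 3 h lie at 7.03 to 7.21, below all others.

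Nfe2l2 showed the widest range of group means among the members' brightest probe sets. On that probe set, 1416543_at, the MAZ1310 arrays read 10.24, 9.93 and 10.43 at 3 h and 9.37, 9.23 and 9.14 at 6 h, while the HF arrays read 10.60, 10.40 and 10.59 at 3 h and 10.51, 10.26 and 10.50 at 6 h. The 3 h groups overlap in the 10.40 to 10.43 span, and at 6 h every HF array is above every MAZ1310 array by a wide gap. At 6 h the difference was 1.18 ± 0.12, a 2.26-fold level (adjusted p = 3e-05, limma), and at 3 h it was 0.33 ± 0.12 (adjusted p = 0.161). In order of mean level, HF at 3 h (10.53 ± 0.11, SD, n = 3), HF at 6 h (10.42 ± 0.14) and MAZ1310 at 3 h (10.20 ± 0.25) had neighbouring ranges that overlap, and MAZ1310 at 6 h (9.25 ± 0.12) lay apart.

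Over time, the brightest Nfe2l2 probe set fell with MAZ1310 and was not called with HF. With MAZ1310 it fell from 3 h to 6 h by 0.95 ± 0.12 (adjusted p = 0.000154, limma), and with HF the difference over the same interval was -0.11 ± 0.12 (adjusted p = 0.734). The test of the difference between the HF effects at 6 h and 3 h gave 0.85 ± 0.18 with adjusted p = 0.0538, just outside the threshold. It was called with the replicate number as a block (adjusted p = 0.0114), since equally numbered arrays deviate together, and with 1 probe set per gene tested (adjusted p = 0.0195).

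The second Nfe2l2 probe set, 1457117_at, is dim, with a mean of 6.02, below the array medians. Its MAZ1310 arrays read 5.98, 5.87 and 6.22 at 3 h and 5.02, 5.27 and 5.57 at 6 h, against 6.81, 6.42 and 6.48, then 6.13, 6.19 and 6.29 with HF. The HF arrays lie above the MAZ1310 arrays at both times. It rose by 0.55 ± 0.14 at 3 h (adjusted p = 0.034, limma) and by 0.91 ± 0.14 at 6 h (adjusted p = 0.000632), and with MAZ1310 it fell over time by 0.73 ± 0.14 (adjusted p = 0.00265); this was not called when the 4 arrays numbered 1 were left out (-0.62, adjusted p = 0.0511). With HF its 6 h arrays also lie below its 3 h arrays, at -0.37 ± 0.14 (adjusted p = 0.132), and its HF effects at 6 h and 3 h differed by 0.36 ± 0.20 (adjusted p = 0.623). The 3 h call did not hold without replicate 1 or 2 of MAZ1310 at 3 h (adjusted p = 0.0783 and 0.123), without HF replicate 1 or 3 at 3 h (0.139 and 0.0662), without all arrays numbered 1 or 2 (0.242 and 0.193), after cyclic loess (0.0693), with the 6 arrays of 3 h alone (0.0633), and with the block and the actin difference as a covariate (0.72, adjusted p = 0.197). The actin difference was higher with HF in all 6 equally numbered pairs. Here and below, fits with the block and that difference cannot fully separate it from the compound, and a call lost there is not assigned to either. At 6 h both probe sets were called in all 15 fits that left out an array or a replicate number, and with the block and the actin difference (adjusted p = 0.00306 and 0.0198). With the mean of the gene's probe sets the 3 h difference of Nfe2l2 was called (0.44, adjusted p = 0.016, limma).

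Nfe2l1 is represented by 1 suffixed probe set, 1416331_a_at. Its MAZ1310 arrays read 9.87, 10.00 and 9.93 at 3 h and 9.84, 9.98 and 9.91 at 6 h, and its HF arrays read 10.20, 10.23 and 10.26, then 10.42, 10.57 and 10.41. The 4 groups form 3 levels: both MAZ1310 groups together, HF at 3 h above them, and HF at 6 h on top, with no HF array as low as a MAZ1310 array. It rose by 0.295 ± 0.078 at 3 h (adjusted p = 0.0416, limma) and by 0.55 ± 0.08 at 6 h, a 1.47-fold level (adjusted p = 0.000331). From 3 h to 6 h with HF the difference was 0.24 ± 0.08, not called (adjusted p = 0.075). It was called with dim probe sets removed (0.0403) and with gene means (0.0308). The HF effects at 6 h and 3 h differed by 0.26 ± 0.11, not called either (adjusted p = 0.457). The 6 h call held in all 15 fits that left out an array or a replicate number and with the block and the actin difference (adjusted p = 0.043). The 3 h call, at changes of 0.264 to 0.327, held in 2 of those 15, without MAZ1310 replicate 2 at 6 h (adjusted p = 0.0475) and without HF replicate 2 at 6 h (0.045), and was lost in the other 13 (adjusted p up to 0.261), with a trended prior variance (0.0502), with the 6 arrays of 3 h alone (0.138) and with the block and the actin difference (0.451).

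Keap1, the adaptor that marks NRF2 for degradation, had lower means with HF on both probe sets at both times, and none of these was called. The brighter one, 1450746_at, read 9.63, 9.67 and 10.02 with MAZ1310 and 9.53, 9.41 and 9.67 with HF at 3 h, and 9.73, 9.93 and 9.73 against 9.44, 9.51 and 9.52 at 6 h. The arrays touch at 3 h and are apart at 6 h. The differences were -0.24 ± 0.11 (adjusted p = 0.274, limma) and -0.31 ± 0.11 (adjusted p = 0.104, 95% interval -0.543 to -0.07). The 6 h difference was called at the same size without MAZ1310 replicate 3 at 3 h (adjusted p = 0.0333) and with the 6 arrays of 6 h alone (0.0397). The other probe set, 1450747_at, gave -0.44 ± 0.20 and -0.23 ± 0.20. Without that MAZ1310 array the 3 h differences were -0.11 and -0.17 on the 2 probe sets, and without HF replicate 2 at 3 h the second was -0.26.

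Bach1, the repressor of Hmox1, had higher means with HF at both times, not called, on arrays whose replicates spread widely at 3 h. On 1440831_at the values were 10.59, 10.41 and 11.00 with MAZ1310 and 11.01, 10.83 and 11.42 with HF at 3 h, then 10.00, 10.09 and 10.24 against 10.54, 10.44 and 10.72 at 6 h. Replicate 3 is the highest and replicate 2 the lowest in both 3 h groups, so the groups overlap there, and at 6 h they do not. The differences were 0.43 ± 0.16 (adjusted p = 0.167, limma) and 0.46 ± 0.16 (adjusted p = 0.0954). Between equally numbered arrays HF exceeded MAZ1310 by 0.42, 0.42 and 0.43 at 3 h and by 0.53, 0.35 and 0.48 at 6 h, and with the replicate block both were called (adjusted p = 0.0123 and 0.00457). With the block and the actin difference neither was (0.47, adjusted p = 0.295, and 0.50, adjusted p = 0.173), and without HF replicate 3 at 3 h the 3 h difference was 0.26 (adjusted p = 0.445). The 6 h difference was also called after cyclic loess (0.0468) and with the 6 arrays of 6 h alone (0.0173). Of the 15 fits that left out an array or a replicate number, 2 called it, and 1 called the 3 h difference.

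Over time Bach1 fell with MAZ1310, and with HF its difference was just outside the threshold. With MAZ1310 it fell by 0.55 ± 0.16 (adjusted p = 0.0336, limma); this did not hold without replicate 1 or 3 of MAZ1310 at 3 h (adjusted p = 0.0599, and -0.39 with adjusted p = 0.135), without MAZ1310 replicate 1 or 2 at 6 h (0.123 and 0.088), without all arrays numbered 1 (0.291) and with the mean of the gene's probe sets (0.129). With HF the difference was -0.52 ± 0.16 (adjusted p = 0.0545), called with the replicate block (0.00182) but not with the block and the actin difference (0.0575), and in 4 of the 15 fits that left out an array or a replicate number. The dimmer probe set 1449311_at gave 0.38 ± 0.34 between the compounds at 3 h (-0.01 without HF replicate 3) and 0.36 ± 0.34 at 6 h, and over time -0.56 ± 0.34 with MAZ1310 and -0.59 ± 0.34 with HF, none of them called.

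**Figure D2:**
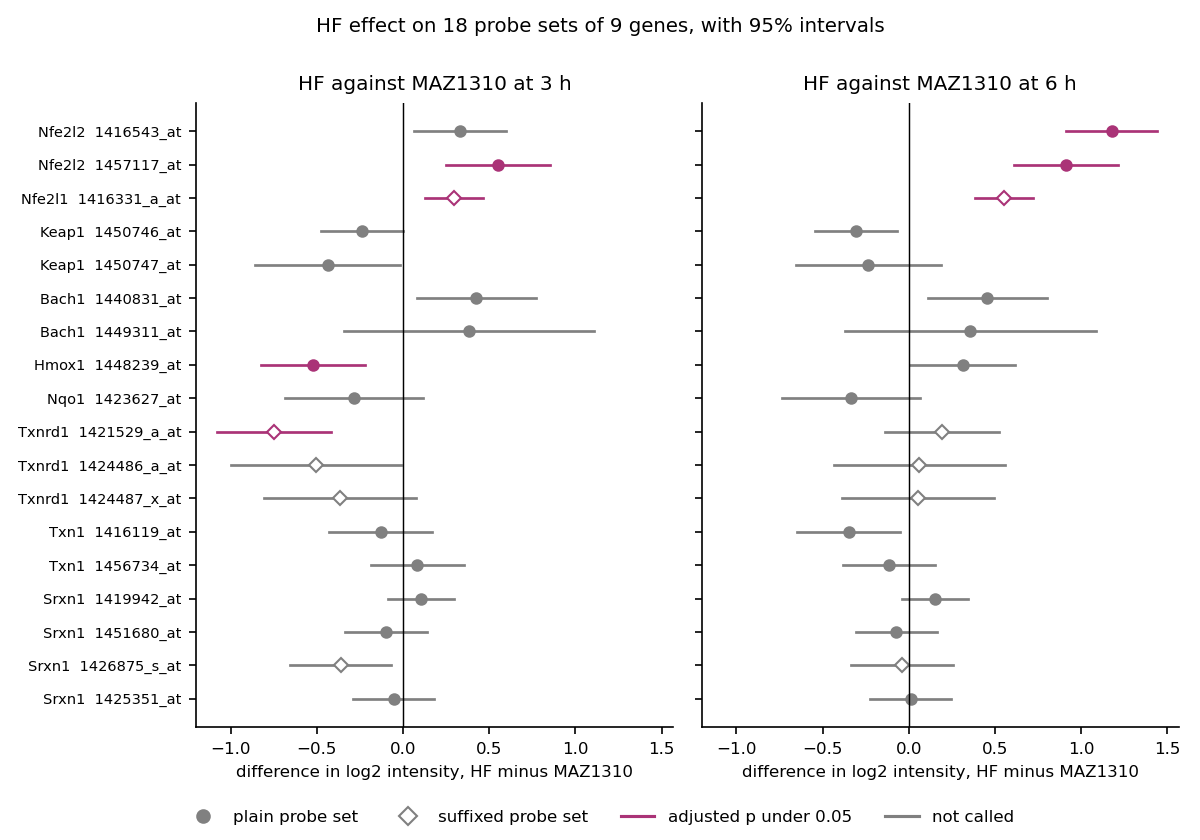
Difference in log2 intensity between HF and MAZ1310 (horizontal axis) at 3 h (left) and 6 h (right) for each of 18 probe sets, with 95% intervals from limma; filled circles are plain and open diamonds suffixed probe sets, and colour marks an adjusted p under 0.05. The 3 called at 6 h are those of Nfe2l2 (1.18 and 0.91) and Nfe2l1 (0.55), and the 3 Txnrd1 probe sets lie below 0 at 3 h and slightly above 0 at 6 h.

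Hmox1 encodes heme oxygenase 1, which opens heme into biliverdin, iron and carbon monoxide and answers to both NRF2 and BACH1. Its single probe set, 1448239_at, read 7.48, 7.44 and 8 with MAZ1310 and 7.03, 7.10 and 7.21 with HF at 3 h. At 6 h it read 7.38, 7.43 and 7.51 with MAZ1310 and 7.77, 7.53 and 7.97 with HF. The arrays are apart at both times, in opposite directions, and MAZ1310 replicate 3 at 3 h stands above the other 2 of its group.

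Hmox1 fell by 0.52 ± 0.14 at 3 h, to 0.695 of the MAZ1310 level (adjusted p = 0.0439, limma), and at 6 h the difference was 0.31 ± 0.14 (adjusted p = 0.212). With HF it rose from 3 h to 6 h by 0.64 ± 0.14 (adjusted p = 0.00876), a call lost without HF replicate 3 at 6 h (0.53, adjusted p = 0.0501) and without all arrays numbered 1 (adjusted p = 0.195), and with MAZ1310 it differed by -0.20 ± 0.14 (adjusted p = 0.478). The HF effects at 6 h and 3 h differed by 0.84 ± 0.20, with adjusted p = 0.0976, and adjusted p = 0.0145 with the replicate block. The 3 h call did not hold without replicate 3 of MAZ1310 at 3 h (-0.35, adjusted p = 0.13), without any 1 of the MAZ1310 arrays at 6 h (0.0561 to 0.0635) or HF arrays at 3 h (0.0763 to 0.137), without HF replicate 1 at 6 h (0.0654) and without all arrays of any 1 number (0.0969 to 0.23). It was also lost after cyclic loess (0.0504), with the 6 arrays of 3 h alone (0.107) and with the block and the actin difference (0.283). The summed macrophage markers, genes of a cell type that can hold much Hmox1, were 825 to 924 with MAZ1310 and 906 to 939 with HF at 3 h, and 792 to 879 and 875 to 889 at 6 h, and their part in the result was not tested.

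Nqo1, a quinone reductase and a standard readout of NRF2, was dim in these cells, at a mean of 5.80. It read 5.70, 5.96 and 6.26 with MAZ1310 and 5.73, 5.45 and 5.89 with HF at 3 h, and 6.11, 5.52 and 6.20 against 5.67, 5.37 and 5.78 at 6 h. The groups overlap at both times. The differences were -0.28 ± 0.19 (adjusted p = 0.468, limma) and -0.34 ± 0.19 (adjusted p = 0.332, 95% interval -0.737 to 0.063), and at a signal below the array medians a change in the transcript can be understated.

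Txnrd1 encodes the cytosolic selenoenzyme that reduces thioredoxin. Its brightest probe set, 1421529_a_at, read 12.62, 12.46 and 13.17 with MAZ1310 and 12.11, 11.78 and 12.12 with HF at 3 h. At 6 h it read 12, 11.81 and 12 with MAZ1310 and 12.19, 12.01 and 12.19 with HF. The 3 h MAZ1310 arrays are above all other 9 arrays, and at 6 h the HF arrays are above the MAZ1310 arrays with almost touching ranges.

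Txnrd1 fell by 0.75 ± 0.15 with HF at 3 h (adjusted p = 0.0108, limma), a level 1.68 times lower, and at 6 h the difference was 0.19 ± 0.15 (adjusted p = 0.545), with 0.19 in each of the 3 equally numbered pairs. With MAZ1310 it fell from 3 h to 6 h by 0.81 ± 0.15 (adjusted p = 0.00252), lost without all arrays numbered 1 (-0.90, adjusted p = 0.0551) and with the mean of the gene's probe sets (-0.425, adjusted p = 0.136), and with HF it differed by 0.13 ± 0.15. The HF effects at 6 h and 3 h differed by 0.94 ± 0.22 (adjusted p = 0.0872, and 0.0115 with the replicate block). The 3 h call was lost without HF replicate 2 at 3 h (-0.64, adjusted p = 0.0551), without all arrays numbered 1 (0.106) or 3 (0.0549), with the mean of the gene's probe sets (-0.54, adjusted p = 0.0857), with the 6 arrays of 3 h alone (0.059) and with the block and the actin difference (-0.87, adjusted p = 0.0715).

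All 3 Txnrd1 probe sets carry a suffix, so no plain one could be set beside them. The _a probe set 1424486_a_at gave -0.51 ± 0.23 at 3 h and 0.06 ± 0.23 at 6 h, and the _x probe set 1424487_x_at gave -0.37 ± 0.21 and 0.05 ± 0.21, all not called. Their 3 h differences were negative in all 3 equally numbered pairs, as on the brightest probe set. An _a suffix marks probes shared by transcripts of 1 gene, while _s and _x mark probes that may also detect other genes.

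Txn1, thioredoxin, rose with the culture time in both compounds on its brighter probe set. Its bright probe set 1416119_at read 12.56, 12.70 and 11.99 with MAZ1310 at 3 h and 13.21, 13.24 and 13.26 at 6 h, and with HF it read 12.24, 12.25 and 12.37, then 12.85, 12.89 and 12.92. All 6 h arrays are above all 3 h arrays of the same compound, and MAZ1310 replicate 3 at 3 h is the lowest of the 12. From 3 h to 6 h Txn1 rose by 0.82 ± 0.14 with MAZ1310 (adjusted p = 0.00109, limma) and by 0.60 ± 0.14 with HF (adjusted p = 0.0116). With the block and the actin difference these were 0.64 (adjusted p = 0.0865) and 0.40 (0.395). The HF rise was also lost without HF replicate 1 at 3 h (0.0509), without all arrays numbered 1 (0.193) or 2 (0.066) and after cyclic loess (0.0525).

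Between the compounds Txn1 differed by -0.13 ± 0.14 at 3 h (adjusted p = 0.684, limma) and -0.35 ± 0.14 at 6 h (adjusted p = 0.145). At 6 h the 2 groups lie apart with narrow spreads, 13.24 ± 0.02 (SD, n = 3) with MAZ1310 and 12.89 ± 0.04 with HF, and the equally numbered pairs differed by -0.36, -0.36 and -0.33. The fit shares 1 spread per probe set over the 4 groups. Without MAZ1310 replicate 3 at 3 h, both differences were called (-0.34, adjusted p = 0.0316, and -0.35, adjusted p = 0.00586), and the 6 arrays of 6 h alone gave adjusted p = 0.00924. The dimmer probe set 1456734_at gave 0.08 ± 0.13 and -0.12 ± 0.13, and with MAZ1310 it differed over time by 0.39 ± 0.13 (adjusted p = 0.0538, and 0.0127 with the replicate block). With HF it differed over time by 0.19 ± 0.13 (adjusted p = 0.457, limma), and those arrays overlap.

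Srxn1, sulfiredoxin, repairs overoxidised peroxiredoxins, and its 4 probe sets were not called between the compounds. The plain 1419942_at read 7.91, 7.79 and 7.77 with MAZ1310 and 7.87, 7.89 and 8.02 with HF at 3 h, and 7.89, 7.61 and 7.82 against 7.93, 7.87 and 7.97 at 6 h. The groups overlap at both times, with differences of 0.105 ± 0.089 and 0.15 ± 0.09. The suffixed 1426875_s_at read 7.57, 7.15 and 7.65 with MAZ1310 and 7.14, 7.05 and 7.10 with HF at 3 h, and 7.52, 7.19 and 7.63 against 7.50, 7.25 and 7.48 at 6 h. Its 3 h arrays do not overlap and lie in the opposite direction to the plain one, at -0.36 ± 0.14 (adjusted p = 0.168, limma, 0.025 with the replicate block, and 0.147 with the block and the actin difference), and its 6 h arrays overlap.

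Srxn1 is the only member with both kinds of probe set, 3 plain and 1 suffixed, which make 3 pairs within arrays, and the pair of the brightest plain one was the main comparison. On that pair the HF effect on the plain probe set exceeded that on the suffixed one by 0.47 at 3 h and 0.19 at 6 h, a mean of 0.33 (exact permutation of compound labels within each time, two-sided, p = 0.005, the smallest value that 400 label sets can give; adjusted over the 3 pairs, 0.015). Leaving out 1 replicate number at a time gave 0.217 to 0.389, with an exact permutation p = 0.0556 each time. The other 2 pairs, added after the data were seen, did not pass: with 1451680_at the effects differed by 0.26 at 3 h and -0.03 at 6 h (mean 0.115, exact permutation p = 0.22, adjusted 0.22), and with 1425351_at by 0.31 and 0.05 (mean 0.18, exact permutation p = 0.055, adjusted 0.0825). Between the compounds, 1451680_at and 1425351_at gave -0.10 ± 0.11 and -0.05 ± 0.11 at 3 h and -0.07 ± 0.11 and 0.01 ± 0.11 at 6 h. The 4 Srxn1 probe sets do not share a sign at either time.

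**Figure D3:**
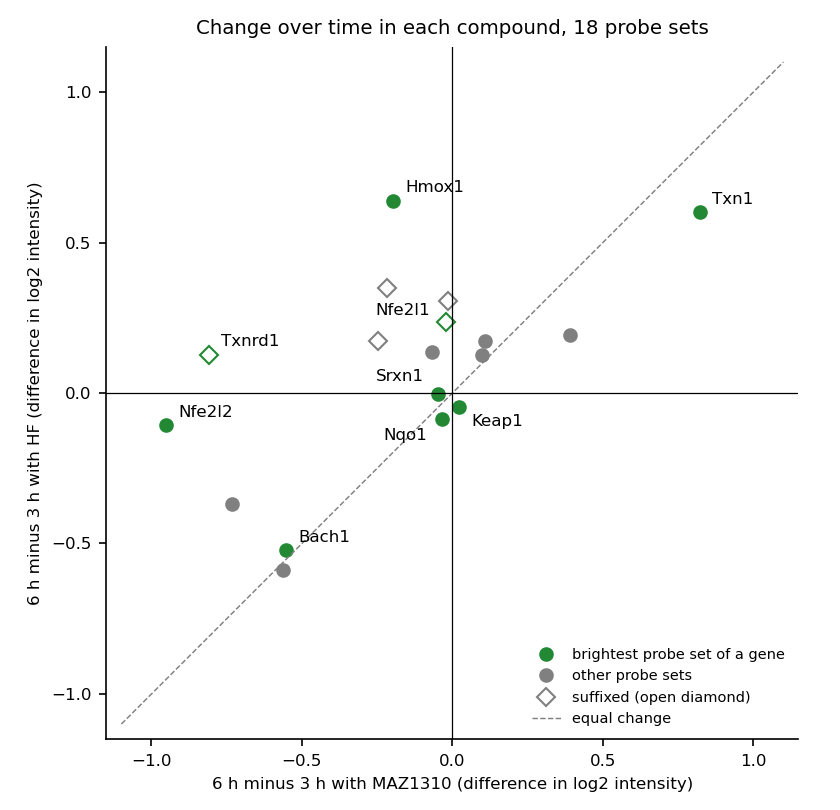
Difference in log2 intensity from 3 h to 6 h with MAZ1310 (horizontal axis) and with HF (vertical axis) for 18 probe sets; green marks the brightest probe set of each gene, open diamonds are suffixed, and the dashed line marks equal change. Nfe2l2 (-0.95 with MAZ1310, -0.11 with HF), Txnrd1 (-0.81 and 0.13) and Hmox1 (-0.20 and 0.64) lie above the line, and Txn1 (0.82 and 0.60) and Bach1 (-0.55 and -0.52) lie near it.

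Over time with MAZ1310, 1 member probe set rose (Txn1) and 4 fell (both of Nfe2l2, Bach1 and Txnrd1), beside 8.03% of all probe sets called higher and 5.66% lower. With HF, 2 rose (Hmox1 and Txn1), and 16 were not called, beside 5.71% and 4.73%. In the test of whether the HF effect differed between the times, limma called 0 of 18 members, 4 of them at an unadjusted p under 0.05, while 0.269% of all probe sets were called higher and 0.215% lower. With the replicate block 3 of 18 were called, those of Nfe2l2, Hmox1 and Txnrd1.

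The genes around the members were counted from 5 lists, members left out, each gene by its brightest probe set. Among all 18193 genes, 2.13% were called higher and 5.3% lower at 3 h, and 4.25% and 10.5% at 6 h, with median changes of 0.03 and 0.02. The lists hold 18, 22, 22, 13 and 31 genes, of which 17, 21, 20, 12 and 31 were measured. Ddi2, G6pdx, Prdx5, Prdx6 and Ftl1 were not analysed.

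Cofactors and controllers of NRF2 and NRF1 moved in both directions. At 3 h 2 of 17 rose and 2 fell, and at 6 h 4 rose and 3 fell, with medians of 0.004 and 0.04. Ngly1, the glycanase that NRF1 needs to become active, read 7.90, 7.85 and 8.59 with MAZ1310 and 8.92, 8.67 and 8.81 with HF at 3 h, and it rose by 0.69 ± 0.16 (adjusted p = 0.0256, limma) and by 0.57 ± 0.16 at 6 h (adjusted p = 0.0382). Maff, a small MAF partner, rose by 0.51 ± 0.10 and 0.60 ± 0.10. Dpp3, a peptidase that competes for KEAP1, fell by 0.52 ± 0.09 and 0.59 ± 0.09. Vcp, the ATPase that extracts NRF1 from the membrane, fell by 0.54 ± 0.12 at 3 h and 0.53 ± 0.12 at 6 h. A dimmer Vcp probe set gave -0.115 and -0.345, and a dimmer Dpp3 one 0.17 and 0.06, not called. Bach2, a lymphocyte relative of BACH1, fell by 1.01 ± 0.14 at 6 h (adjusted p = 0.000218), its arrays being 11.57, 11.92 and 11.71 with MAZ1310 and 10.57, 10.82 and 10.79 with HF.

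About as many NRF2 targets of glutathione, NADPH and detoxification fell with HF as were not called. Of 21, 11 fell at 3 h and 10 were not called (12 at an unadjusted p under 0.05), with a median of -0.40, and at 6 h 10 fell, 1 rose and 10 were not called, with a median of -0.35. Gsr, glutathione reductase, read 9.09, 9.05 and 9.66 with MAZ1310 and 8.23, 8.25 and 8.28 with HF at 3 h, and fell by 1.01 ± 0.13 (adjusted p = 0.00045, limma). Gclm, the modifier subunit of glutathione synthesis, fell by 0.90 ± 0.16, and Pgd, of the pentose phosphate pathway, by 0.71 ± 0.11. The groups of Gsr do not overlap.

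At 6 h Cat, catalase, showed the widest gap of this list. It read 8.71, 8.63 and 8.61 with MAZ1310 and 6.93, 6.75 and 7.15 with HF, and fell by 1.71 ± 0.13 (adjusted p = 2.18e-06, limma), after a fall of 0.74 ± 0.13 at 3 h. Ephx1, microsomal epoxide hydrolase, fell by 1.17 ± 0.13, Ugdh, which makes UDP-glucuronate, by 1.13 ± 0.12, and Gstp1, a glutathione transferase, by 1.08 ± 0.14. The 1 gene that rose was Slc7a11, the cystine importer, also a known target of ATF4, at 0.83 ± 0.16 (adjusted p = 0.00387); it lies outside the naming rule and was chosen after its value was seen.

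Among 20 genes of thioredoxin, peroxiredoxin and peroxide handling, 7 fell and 13 were not called at each time, with medians of -0.22 and -0.28. Prdx2, a cytosolic peroxiredoxin, read 10.07, 10.29 and 9.96 with MAZ1310 and 9.23, 9.29 and 9.36 with HF at 3 h, and 10.96, 10.99 and 11.14 against 9.83, 9.88 and 10.04 at 6 h. The arrays are apart at both times, and Prdx2 fell by 0.81 ± 0.10 (adjusted p = 0.000312, limma) and by 1.11 ± 0.10 (adjusted p = 6.66e-06). Prdx4, the peroxiredoxin of the endoplasmic reticulum, fell by 0.63 ± 0.14 and 1.14 ± 0.14. At 3 h Txnrd3 and Sod2, the mitochondrial superoxide dismutase, fell by 0.59 ± 0.14 and 0.55 ± 0.10, and at 6 h Msrb1, a methionine sulfoxide reductase, and Gpx1, a glutathione peroxidase, fell by 1.13 ± 0.11 and 0.95 ± 0.10. The 3 measured erythroid markers, from cells rich in Prdx2, summed to 207 to 225 with MAZ1310 and 217 to 237 with HF at 3 h, and to 190 to 213 and 208 to 220 at 6 h.

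Of 12 heme and iron genes 2 fell at 3 h, Abcb6, a porphyrin transporter, by 0.77 ± 0.10 and Alas1, the first enzyme of heme synthesis, by 0.46 ± 0.11. At 6 h 7 fell, among them Abcb6, Slc48a1, a heme transporter of endosomes (0.63 ± 0.08), Fth1, ferritin heavy chain (0.61 ± 0.18, adjusted p = 0.0467, limma), and Hmox2, the constitutive heme oxygenase (0.58 ± 0.09). Tfrc, the transferrin receptor, was the 1 that rose, by 0.32 ± 0.09 (adjusted p = 0.0462), named after its value was seen. The medians were -0.17 and -0.41.

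Most proteasome subunits, known targets of NRF1, were not called, and those called were lower with HF. Of 31, 6 fell and 25 were not called at 3 h, and 11 fell and 20 were not called at 6 h, with medians of -0.11 and -0.29. Psmc3, an ATPase of the regulatory particle, fell by 0.65 ± 0.10 and 0.71 ± 0.10, and Psmd13 by 0.585 ± 0.089 and 0.83 ± 0.09. Psma1, of the core ring, fell by 0.40 ± 0.09 and 0.60 ± 0.09, and Psmd2 by 0.41 ± 0.10 and 0.51 ± 0.10.

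These list counts fell when the actin difference was added with the block, and so did the calls over all probe sets. With both in the model, 392 of all probe sets were called at 3 h in place of 2558. At 6 h 1229 were called in place of 4989. When the block and the actin difference were both in the model, the genes called at 3 h were 0, 2, 1, 0 and 0 in the order of the lists, in place of 4, 11, 7, 2 and 6, and at 6 h 1, 7, 4, 1 and 2 in place of 7, 11, 7, 8 and 11. With the block alone they were 5, 12, 9, 3 and 9 at 3 h and 8, 12, 7, 8 and 12 at 6 h. Without MAZ1310 replicate 3 at 3 h they were 4, 9, 6, 1 and 3 at 3 h and 7, 11, 9, 8 and 14 at 6 h. Of the 9 T cell markers, 7 were lower with HF at 6 h and 0 were called at 3 h. The part of RNA quality or of the T cell markers in the counts was not tested.

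**Figure D4:**
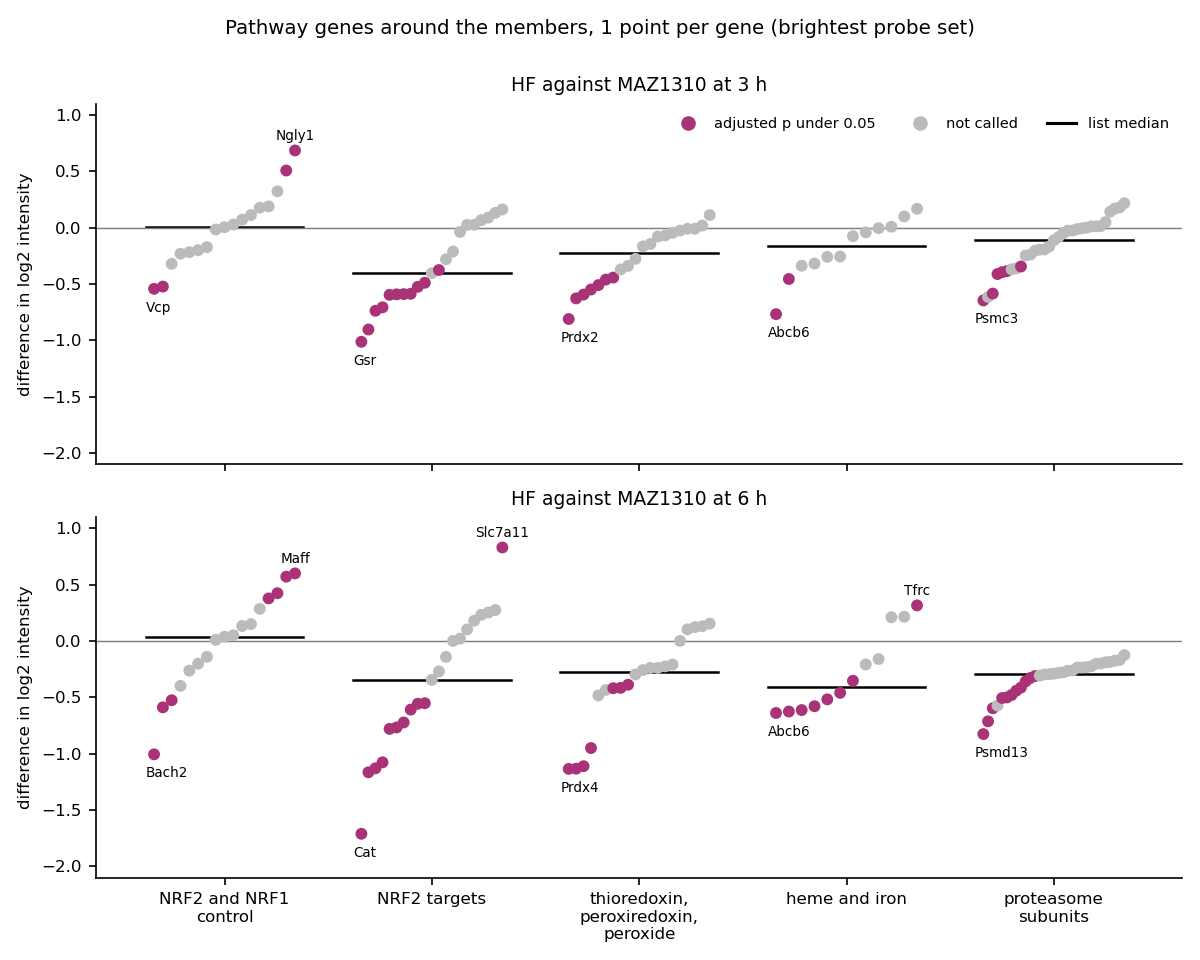
Difference in log2 intensity between HF and MAZ1310 (vertical axis) at 3 h (top) and 6 h (bottom) for the measured genes of 5 lists, 1 point per gene in order of size; colour marks an adjusted p under 0.05, bars are list medians, and the called gene at each end is named. NRF2 targets have medians of -0.40 and -0.35, with Cat lowest at -1.71 and Slc7a11 highest at 0.83 at 6 h.

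For the 4 members with the widest range of group means, the probe sets of other genes with the most alike pattern over the 12 arrays were sought, by Pearson's r of log2 intensity. The arrays share their compound and time, so r describes these 12 arrays only. Nfe2l2 was followed by Zeb1 (r = 0.98), Junb (0.968) and Gbp6 (0.967). Bach1 was followed by Clk1 (0.989), Nr4a3 (0.982) and Cdk17 (0.978), and Txn1 by Znrd2 (0.988), 1110008P14Rik (0.988) and Thoc7 (0.987). Txnrd1 had looser neighbours, Slc25a44 (0.935), Map2k3 (0.934) and Gclc (0.925), the catalytic subunit of glutathione synthesis and itself in the NRF2 target list.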

How the data were processed

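Each of 12 samples was run on its own Affymetrix array. The authors deposited probe set intensity on a linear scale; RMA is the tool the submitters' processing notes name, and its version is not given in the sources used here. RMA normalizes quantiles, so a shift of all transcripts would not appear. Here log2 was taken, and 64 array controls were set aside from 45101 probe sets. Of the rest, 34945 carried 1 symbol and 932 several. The means of the 4 groups were estimated together by limma 3.58.1 (R 4.3.3), with Benjamini-Hochberg adjustment over 45037 probe sets, and the script was checked on simulated data.

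Members and lists were chosen with earlier results of these data known. Members were described first by their brightest probe set; up to 4 called genes of largest change were named per list and time, and the 3 closest neighbours of the 4 members with the widest range of group means. Equally numbered arrays deviated together (r from 0.121 to 0.479 over 12 pairs), but the labels do not say what a number shares. The pairing is therefore inferred, and the blocked value is given where it changes a call. Results were recomputed with cyclic loess, with dim probe sets removed, with the brightest, the brightest plain or the mean probe set per gene, with a trended prior, on 1 time only, with the actin difference as a covariate, and without single arrays or replicate numbers. Promoters are from RefSeq; no genome was used.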

Additional observations from a re-analysis of the deposited data

Results flagged for a closer look

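The HF effect on Hmox1 differed between 6 h and 3 h by 0.84 ± 0.20 in log2 intensity, from -0.52 to 0.31, with all arrays apart in opposite directions. The test of the difference missed the threshold (adjusted p = 0.0976, limma). The effect on Txnrd1 (1421529_a_at) differed by 0.94 ± 0.22, from -0.75 to 0.19, with arrays likewise apart (adjusted p = 0.0872).

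Gclc, the catalytic subunit of glutathione synthesis, showed the same kind of turn, and its difference of 0.87 ± 0.14 passed the test (adjusted p = 0.0201, limma). It read 11.30, 11.12 and 11.48 with MAZ1310 and 10.81, 10.54 and 10.76 with HF at 3 h, and 10.75, 10.67 and 10.66 against 10.90, 11.04 and 10.96 at 6 h, so the effect went from -0.60 to 0.275. The 6 h difference of Gclc by itself was not called. Nor were the 6 h differences of Hmox1 (adjusted p = 0.212, limma) and Txnrd1 (0.545). The Gclc probe set carries an _s suffix and may detect other transcripts.

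Cat, catalase, differed by -0.97 ± 0.19 (adjusted p = 0.0399, limma), from -0.74 at 3 h to -1.71 at 6 h, in 1 direction.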

How the results depend on the processing

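The 6 h calls of Nfe2l2 and Nfe2l1 held in each alternative that measured them, and no result changed sign among the called values. The 3 h calls did not hold as well. From 4 member probe sets called at 3 h, cyclic loess left 2, the brightest plain probe set per gene (7 members tested) left 1, and the replicate block with the actin difference or the 6 arrays of that time left 0. From 3 at 6 h, the brightest plain one per gene left 1 and the 6 arrays of that time gave 6. For the difference of effects (0 members), the filter gave 1, the brightest probe set per gene 3, the brightest plain one 2, and the replicate block 3 without or with the actin difference. Over time with MAZ1310 (5 members), the brightest plain one gave 3 and gene means 2; with HF (2 members), the filter and the replicate block each gave 4 and the block with the actin difference 1. Where 1 value stood for a gene, fewer features were tested (18193 genes by the brightest probe set); the cause of the other shifts was not tested.

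Over all probe sets, 2558 were called at 3 h, against 1393 with the brightest plain one per gene, 1630 with gene means, 4038 with the replicate block, 392 with the block and actin difference and 1289 with the 6 arrays of that time. At 6 h 4989 became 3085 (brightest), 2505 (plain), 3057 (means) and 1229 (block and actin). The difference of effects, 218, became 328 (brightest), 678 (replicate block) and 768 (block and actin). The MAZ1310 time course, 6165, became 3595, 2971 and 3518 with brightest, plain and mean, and 2935 with block and actin. The HF one, 4703, became 2838, 2381, 2813 and 2521 in that order.

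Leaving out 1 array or replicate number gave 0 to 5 members called at 3 h, 3 to 6 at 6 h (6 without MAZ1310 replicate 3 at 3 h), 0 to 1 for the difference, 2 to 7 over time with MAZ1310 and 0 to 3 with HF. Over all probe sets the ranges were 837 to 3084, 1852 to 6029, 1 to 408, 2392 to 6121 and 1588 to 5856. The Srxn1 contrast of plain and suffixed probe sets, 0.33, ranged from 0.217 to 0.389 without a replicate number, at p = 0.0556 by exact permutation, the smallest value that design gives; with the other plain probe sets, an alternative chosen after seeing the data, it was 0.115 and 0.18 (exact permutation p = 0.22 and 0.055). The replicate block also called the Srxn1 suffixed probe set over time with HF (0.31, adjusted p = 0.0402, limma, and 0.0808 with the actin difference); apart from the calls named in the text it changed no other member's call. With 3 arrays a group, precision is limited by that number, and dim probe sets have no detection call here.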
